A study of Mus musculus with 37 samples.

Results

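The comparison set the effect of deleting Hira against the effect of deleting Cabin1 in mouse germinal vesicle (GV) oocytes, gene by gene. For each gene the change from heterozygous (Het) to knockout (KO) oocytes was taken within the Hira line (ZH) and within the Cabin1 line (CabZ), and the CabZ change was subtracted from the ZH change. The comparison used 16 of the 37 libraries of the series, all from GV oocyte RNA, with 4 libraries for each genotype, Het and KO, of the ZH and of the CabZ line. Of 18143 gene symbols listed for both lines, 5332 had a mean of at least 1 FPKM (fragments per kilobase of gene, scaled to the depth of the library) in each line and were tested. The 2 effects differed for 465 of them, with an FDR adjusted P under 0.05 and a difference above 1 on the log2(FPKM + 1) scale, which is 8.72% of the genes tested.

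The floxed Hira and Cabin1 alleles were on C57BL/6 backgrounds, and both lines carried Zp3-Cre, which deletes floxed alleles in the female germline as the oocyte grows. The background of the Zp3-Cre line is not stated, and the study used littermates to limit variation in background. Het oocytes carried the same Cre with 1 intact allele of the targeted gene, so the comparison within a line was of 1 functional copy against no functional copy, and no library came from oocytes without Cre. Females were primed with gonadotrophin before fully grown oocytes were isolated. A library held the cDNA of a pool of 10 oocytes. Neither the labels nor the methods say which oocytes came from which female, so the P-values measure the spread between pools. The 2 lines were deposited in separate tables that were normalised separately, and the line, the table and any difference in handling between them cannot be told apart. For this reason no level was compared between the lines, and the tests below compare changes within a line.

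Hira is the histone chaperone subunit that places the variant histone H3.3 into chromatin without DNA replication, and it works in a complex with Ubn1 and Cabin1. Fully grown GV oocytes stop transcribing and live on stored maternal mRNA until the embryo activates its own genome, which in the mouse happens around the 2-cell stage.

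Recovered read totals were 8996897 to 15082554 per library. Hira itself was at most 21 reads in any of the 16 libraries, so its mRNA level does not check the ZH labels, and a deletion of floxed exons need not remove the reads of the rest of a gene. Cabin1 fell in its own line from 0.119 ± 0.0312 to 0.0242 ± 0.0167 FPKM (SD, n = 4 against 4, two-sided exact permutation P = 0.0286, the smallest this design allows), and it fell in the ZH line as well, from 0.286 ± 0.0410 to 0.0864 ± 0.0175 FPKM (exact permutation P = 0.0286). The ZH KO mean of Cabin1 was thus 30.2% of the ZH Het mean. Ubn1 fell in the ZH line too, from 0.841 ± 0.159 to 0.446 ± 0.0945 FPKM (exact permutation P = 0.0286). Ubn2 fell there from 0.278 ± 0.0569 to 0.115 ± 0.0296 FPKM (exact permutation P = 0.0286). In the CabZ line the KO mean was 111% of Het for Ubn1 and 99.6% for Ubn2, with overlap. All 12 oocyte markers were present in each group. Their summed level was 1911 to 2122 FPKM in ZH Het, 634 to 1783 in ZH KO, 1802 to 2732 in CabZ Het and 1482 to 2178 FPKM in CabZ KO libraries. The summed level of the granulosa and cumulus markers was 0.481 to 0.785 FPKM in the ZH Het group against 1.79 to 3.17 FPKM in the ZH KO group over the 17 listed there. Inha, a subunit of inhibin, was highest at a mean of 1.196 FPKM in ZH KO, and it alone reached a mean of 1 FPKM. Of the 17, 3 were at 0 in every ZH KO library and 1 in every ZH Het library. Over the 9 such markers of the CabZ table the summed level was 0.707 to 1.09 FPKM in CabZ Het and 0.9075 to 1.34 FPKM in CabZ KO libraries. The part of these cells in the genes that rose in ZH KO oocytes was not tested. Among the ZH KO libraries, replicate 2 was the nearest to the Het mean for 2030 of the 5332 genes (38.1%), and replicates 1, 3 and 4 for 15.5%, 30.9% and 15.5%.

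Across genes the 2 effects ran partly in parallel. Pearson's r between the ZH and CabZ log2 fold changes was 0.58 and Spearman's rho was 0.50 over 5332 genes, which are not independent replicates. The ZH effect was the wider, with an SD over genes of 0.79 against 0.40 on the log2 scale. Of the genes tested, 8.23% were called up and 7.61% down in ZH KO against ZH Het, and 2.19% up and 0.825% down in CabZ KO against CabZ Het. Among the 439 genes called up in ZH KO, the effects differed between the lines for 216 (49.2%), and among the 406 called down for 138 (34.0%). A total of 93 genes were called up in both lines and 21 down in both, and for 38 of the 93 the sizes differed.

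**Figure D1:**
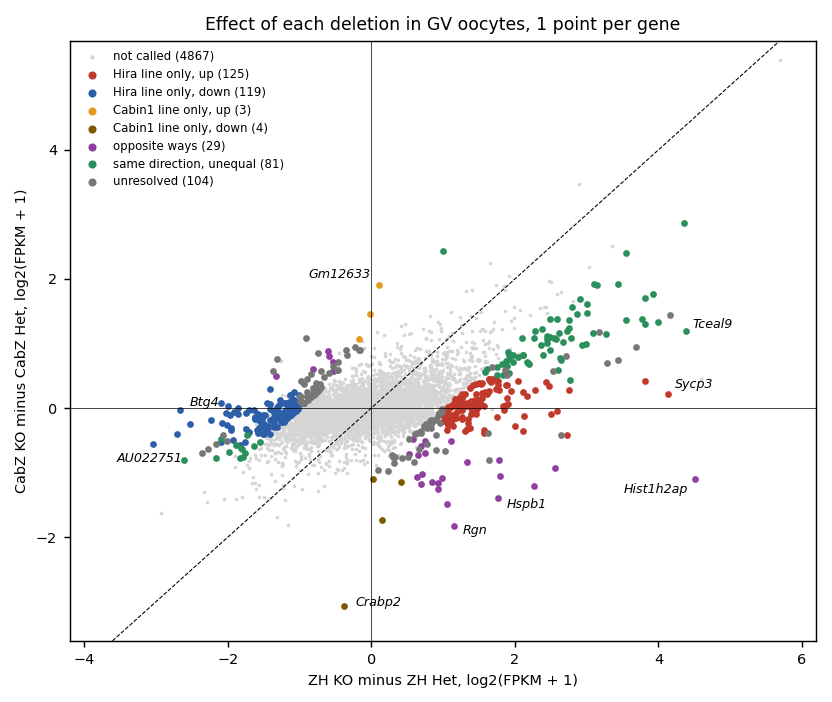
Change from Het to KO in the ZH line (x axis) against the CabZ line (y axis), in log2(FPKM + 1), with 1 point per gene tested and colours for the classes of genes whose 2 effects differed. The dashed line marks equal effects. Most coloured points spread along the x axis, with 125 genes up and 119 down in the ZH line only, while 23 of the 29 genes that moved in opposite ways lie at the lower right.

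The 465 genes were sorted by what each line did. A gene was placed in a class of 1 line when it was called in that line and the 95% interval of the other line's change lay within 1 log2 unit of 0, which bounds that change without showing it to be absent. By this rule 125 genes rose and 119 fell in ZH KO oocytes only, and 3 rose and 4 fell in CabZ KO oocytes only. Of the 119, 94 had a CabZ change below 0, beside 2866 of all 5332 genes. Of the 125, 74 had a CabZ change above 0, beside 2466 of all. In 29 genes both changes passed FDR adjusted P under 0.05 with opposite signs, in 81 both passed with the same sign and unequal size, and 104 could not be placed. The ZH effect was the higher for 273 of the 465 genes (5.12% of those tested) and the lower for 192 (3.6%). This split depended on scaling, and was 430 to 139 with the ZH libraries scaled to the reads on their own table, 375 to 106 with both lines scaled to the reads on genes tested in both, 197 to 339 with libraries set to equal medians and 239 to 241 after quantile normalisation. The median difference over all genes was -0.08 here, 0.04 with scaling to the genes tested in both and -0.22 with equal medians, so directions of gene groups are given beside this shift. Beside these scalings, the table total covered by listed genes was 74.2% to 74.7% of the FPKM scale in the ZH Het group, but 66.0% to 68.2% in the ZH KO group. The members nearest to the threshold on the size of the difference were Tiparp (-1.00115), Obox5 (-1.00261) and Gm12856 (-1.00265) just inside it, and Trim61 (-0.997796), Lsm5 (0.997086) and Usp46 (-0.995209) just outside.

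A small set of genes moved in opposite ways in the 2 lines. In 23 of the 29 the level was higher in ZH KO and lower in CabZ KO oocytes, and in 6 it was the reverse. The KO and Het libraries did not overlap in either line for 21 of the 29. Of all genes tested, 45.8% did not overlap in the ZH line, 20.8% in the CabZ line and 13.1% in both. The class was formed by passing the test in both lines, so this count describes its members and gives them no further support. Both signs held under each of the 4 scalings for all 29, and 17 stayed in the class under every scaling. Without CabZ Het replicate 1 the class numbered 19, all of them among the 29. Only 6 of the 29 passed 1 log2 unit in both lines, namely Hist1h2ap, Hspb1, Hsp25-ps1, Gm11914, Rgn and Zscan4-ps1.

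Hist1h2ap (chr13:21833026-21833508, GRCm38), a gene of the replication-dependent histone H2A family, stood at 7.96, 1.77, 5.73 and 10.46 FPKM in ZH Het and 155, 100.5, 205 and 159 FPKM in ZH KO libraries 1 to 4. In the CabZ line it stood at 24.5, 22.3, 15.7 and 12.8 FPKM in Het and 6.66, 7.32, 8.77 and 9.40 FPKM in KO libraries. Every ZH KO library lay above every ZH Het library, and every CabZ KO library lay below every CabZ Het library. The ZH change was 4.52 and the CabZ change -1.10, a difference of 5.62 ± 0.49 (SE, FDR adjusted P = 2.78e-06), the widest of the 465. Its near-identical family members can share reads, so the count of this copy is uncertain, and it rested on 11 to 102 reads in ZH Het, 777 to 1313 in ZH KO, 66 to 147 in CabZ Het and 32 to 41 reads in CabZ KO libraries.

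Hspb1 (chr5:135887919-135889564) encodes the small heat shock protein HSP25. It stood at 2.48, 1.82, 3.35 and 2.95 FPKM in ZH Het and 9.73, 12.2, 8.35 and 16.1 FPKM in ZH KO libraries, and at 6.43, 3.25, 3.43 and 3.96 FPKM in CabZ Het and 0.653, 0.808, 1.22 and 1.16 FPKM in CabZ KO libraries. Neither pair of groups overlapped, and the effects differed by 3.16 ± 0.29 (SE, FDR adjusted P = 4.01e-06). These values rested on 38 to 99 reads in ZH Het, 182 to 362 in ZH KO, 59 to 132 in CabZ Het and 11 to 19 reads in CabZ KO libraries. The processed pseudogene Hsp25-ps1, which shares sequence with Hspb1 and may share its reads, moved the same 2 ways, by 2.26 and -1.21. The list of heat shock proteins and chaperones had 39 genes tested and a median difference of -0.02, whose sign turned under other scalings, with 3 called. The others called were Dnajc3 and Stip1, co-chaperones that fell in ZH KO oocytes only.

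Rgn (chrX:20549787-20562090), which encodes the calcium-binding protein regucalcin, stood at 13.97, 13.7, 9.48 and 9.58 FPKM in ZH Het and 32.7, 23.4, 28.3 and 23.4 FPKM in ZH KO libraries. Its CabZ levels were 21.1, 17.2, 15.6 and 16.3 FPKM in Het and 7.77, 3.14, 2.62 and 4.56 FPKM in KO libraries. This gene had the deepest cover of the 6, with at least 309 reads in every library, and its difference was 2.98 ± 0.32 (SE, FDR adjusted P = 1.32e-05). Zscan4-ps1, a member of the Zscan4 cluster on chromosome 7, stood at 17.7, 19.6, 17.6 and 17.4 FPKM in ZH Het and 34.3, 27.9, 52.3 and 44.8 FPKM in ZH KO libraries, against 23.0, 26.8, 27.3 and 26.1 FPKM in CabZ Het and 19.04, 4.87, 8.51 and 6.44 FPKM in CabZ KO libraries. Replicate 1 of CabZ KO was the highest of its group and still lay below every CabZ Het library. Its paralogue Zscan4d rose in both lines, by 3.99 and 1.33, and the members of this cluster are alike enough to share reads, so their separate counts are uncertain.

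**Figure D2:**
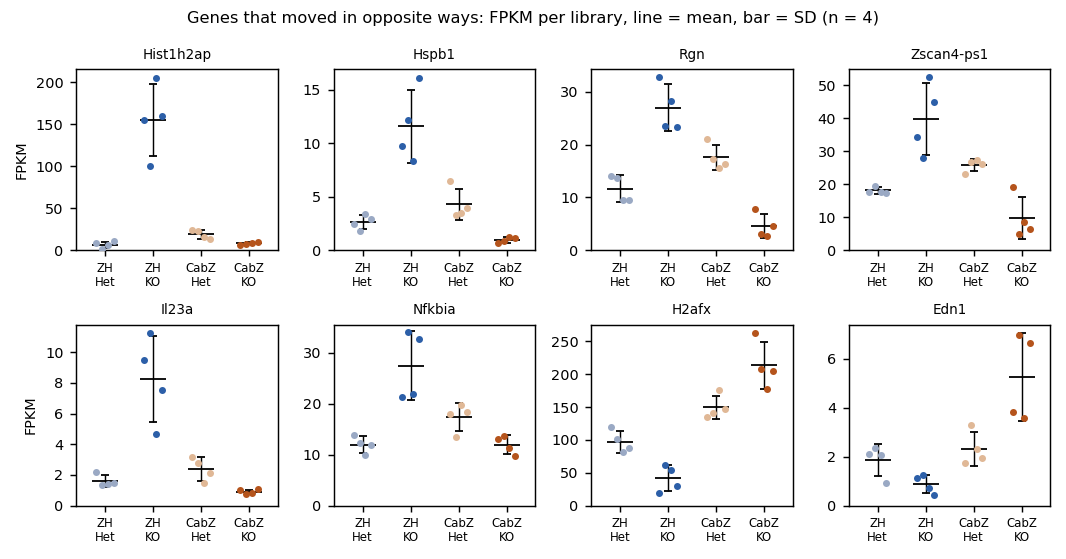
FPKM in each library (points) with the group mean (horizontal line) and SD (bar), n = 4 per group, for 8 genes that moved in opposite ways, each on an axis that starts at 0. Hist1h2ap, Hspb1, Rgn, Zscan4-ps1, Il23a and Nfkbia are higher in ZH KO and lower in CabZ KO than in their Het controls, and H2afx and Edn1 show the reverse.

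Other members with opposite changes were named after their values were seen. Il23a, the specific subunit of the cytokine interleukin 23, changed by 1.78 in ZH KO and -0.81 in CabZ KO. Nfkbia, the inhibitor that holds NF-kappaB in the cytoplasm, stood at 11.9 ± 1.62 FPKM in ZH Het, 27.4 ± 6.81 in ZH KO, 17.4 ± 2.74 in CabZ Het and 11.9 ± 1.81 FPKM in CabZ KO (SD, n = 4), with a difference of 1.62 ± 0.24 (SE, FDR adjusted P = 0.000338). Bst2, the interferon-induced membrane protein tetherin, changed by 0.70 and -1.02. Atp5g3, a subunit of the ATP synthase ring, changed by 0.74 and -0.69. Nfkbia kept its class in 2 of the 4 scalings. The 6 genes lower in ZH KO and higher in CabZ KO were H2afx, Edn1, Olfr624, Gm20627, Rasl2-9 and Fam90a1a. Of these 6, Gm20627 alone kept its class in all 4 scalings, Olfr624 kept it in 1, and the others in 2. H2afx, the histone variant that is phosphorylated at DNA breaks, stood at 119, 101, 80.8 and 87.1 FPKM in ZH Het and 19.8, 61.8, 53.7 and 29.9 FPKM in ZH KO libraries, and at 134, 141, 175 and 148 FPKM in CabZ Het and 263, 208, 177 and 205 FPKM in CabZ KO libraries. Het and KO libraries were apart within each line, and its CabZ change was small at 0.50 (FDR adjusted P = 0.0397).

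The start regions of 2 of these genes are printed because both rose in ZH KO and fell in CabZ KO. They are the RefSeq windows of GRCm38.p6 from 250 bases before to 50 after the annotated start, 5′ to 3′ on the strand of the gene. Capitals in Hspb1 mark the core of the heat shock element, GAANNTTC with the N positions left in lower case, and capitals in Nfkbia mark TATAAA read on the opposite strand.
Hspb1 (chr5:135887669-135887968, plus strand): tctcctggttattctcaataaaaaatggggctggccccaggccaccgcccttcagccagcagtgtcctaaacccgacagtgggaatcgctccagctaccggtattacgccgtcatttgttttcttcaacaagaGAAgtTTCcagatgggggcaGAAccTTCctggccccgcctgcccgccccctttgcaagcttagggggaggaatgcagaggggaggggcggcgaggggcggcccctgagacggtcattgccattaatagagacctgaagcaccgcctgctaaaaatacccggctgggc
Nfkbia (chr12:55492598-55492897, minus strand): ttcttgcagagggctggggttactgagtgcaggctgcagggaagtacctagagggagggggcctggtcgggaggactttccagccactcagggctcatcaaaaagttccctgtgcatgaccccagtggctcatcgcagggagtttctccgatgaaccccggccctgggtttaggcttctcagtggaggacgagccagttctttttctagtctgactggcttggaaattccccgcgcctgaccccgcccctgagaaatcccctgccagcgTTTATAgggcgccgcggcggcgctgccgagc
The heat shock element core was present in 3 of the 14 opposite-way genes with such a window (21.4%) and in 6.61% of the 3206 windows of all genes tested, on either strand. This motif was added after the values were seen, and Hspb1 itself is among the 3, so the shares give the class no support. A match is a description of letters and not a measured binding site.

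Of the genes that rose in ZH KO oocytes only, the leading one was Sycp3 (chr10:88459569-88473237), a component of the synaptonemal complex that joins homologous chromosomes in meiotic prophase. It stood at 1.99, 1.94, 2.70 and 3.12 FPKM in ZH Het and 79.4, 47.5, 60.0 and 52.4 FPKM in ZH KO libraries. Its CabZ values were 5.58, 4.52, 3.18 and 3.56 FPKM in Het and 5.82, 4.23, 5.92 and 4.10 FPKM in KO libraries, which overlap. The ZH change was 4.13, the 95% interval of the CabZ change was -0.16 to 0.59, and the difference was 3.92 ± 0.26 (SE, FDR adjusted P = 3.71e-07). Id2, an inhibitor of helix-loop-helix transcription factors, rose from 0.935 ± 0.236 to 27.2 ± 9.40 FPKM in the ZH line (SD, n = 4) and had a CabZ interval of -0.03 to 0.88. Gpx1, a glutathione peroxidase that removes peroxides, stood at 20.3, 14.2, 13.4 and 22.7 FPKM in ZH Het and 93.2, 98.4, 106 and 141 FPKM in ZH KO libraries, and at 19.6 ± 4.98 FPKM in CabZ Het and 18.4 ± 0.372 FPKM in CabZ KO (SD, n = 4).

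Further members of this class belonged to several families. Xlr5c of the X-linked Xlr cluster rose by 2.75, Teddm1b by 2.72, the nucleosome-binding protein gene Hmgn2 by 2.16 and the chaperone gene Dnajb9 of the endoplasmic reticulum by 1.58. Ribosomal and nucleolar genes were present, with Rps20 at 1.38, Rplp1 at 1.39, and the ribosome assembly factors Nhp2 at 1.53 and Npm1 at 1.64. Respiratory chain genes were present too, with Ndufa11 of complex I at 1.30 and Cox6c of complex IV at 1.40. In CabZ KO the changes of these genes ran from -0.42 for Teddm1b to 0.46 for Npm1, with FDR adjusted P of 0.059 or more by limma. The intergenic non-coding RNA Gm43263, the processed pseudogene Rps23-ps1, the ribosomal gene copy Rpl9-ps6 and Gm7334 were also among the leading members, and 40 of the 125 genes (32.0%) were processed pseudogenes against 15.3% of the genes tested. Copies of this kind can take reads of their parent gene, and 9 of the 14 members with a ribosomal protein symbol were named as pseudogenes. Their separate counts are therefore uncertain.

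**Figure D3:**
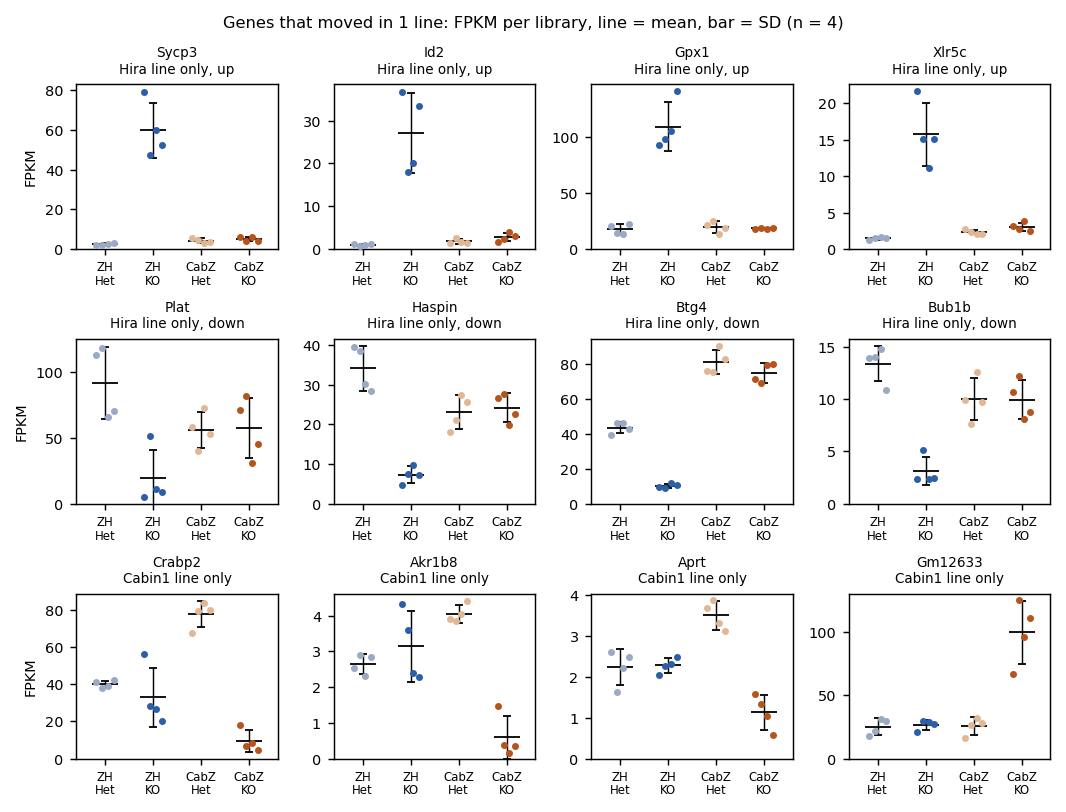
FPKM in each library (points) with the group mean (horizontal line) and SD (bar), n = 4 per group, for 4 genes that rose in the ZH line only (top), 4 that fell in the ZH line only (middle) and 4 that moved in the CabZ line only (bottom), each on an axis that starts at 0. In the middle row replicate 2 is the highest ZH KO point for Plat and Bub1b.

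One of the genes that fell in ZH KO oocytes only was Btg4. Btg4, the adaptor that brings the deadenylase to maternal mRNAs when the oocyte matures, stood at 39.2, 45.9, 46.3 and 42.8 FPKM in ZH Het and 9.77, 9.28, 11.9 and 10.51 FPKM in ZH KO libraries. Its CabZ values were 75.7, 75.5, 90.4 and 82.7 FPKM in Het and 71.3, 68.8, 79.3 and 80.2 FPKM in KO libraries, where the groups overlap. Btg4 had the narrowest error of the leading members, with a difference of -1.86 ± 0.15 (SE, FDR adjusted P = 2.16e-06) over at least 8451 reads per library. Haspin, the kinase that phosphorylates histone H3 at mitotic and meiotic centromeres, fell from 34.1 ± 5.67 to 7.34 ± 2.08 FPKM in the ZH line and was 23.0 ± 4.30 and 24.2 ± 3.61 FPKM in the CabZ line (SD, n = 4). Khdc1b, of a KH-domain family expressed in oocytes, fell by 2.23 on the log2 scale, from 264 ± 20.3 to 56.9 ± 15.0 FPKM (SD, n = 4), against a CabZ interval of -0.43 to 0.06.

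Of the 28 meiotic arrest and resumption genes tested, 4 had a difference called (14.3%), and of the 46 spindle, kinetochore and cohesin genes 2 (4.35%), beside 8.72% of all genes. Bub1b, which encodes the spindle checkpoint protein BubR1, stood at 13.9, 14.04, 14.8 and 10.9 FPKM in ZH Het and 2.40, 5.11, 2.37 and 2.51 FPKM in ZH KO libraries, with replicate 2 apart from the other KO libraries. In the CabZ line Bub1b was 10.0 ± 2.04 FPKM in Het and 9.95 ± 1.87 FPKM in KO (SD, n = 4), with an interval of -0.37 to 0.36 for the change. Mos, the kinase that holds the egg in metaphase, changed by -1.12 in ZH KO, Plk1, a mitotic kinase, by -1.36 and Kif23, a kinesin of cytokinesis, by -1.62. The oocyte-secreted protein gene Oosp1 fell by 1.96 and its relative Oosp3 by 1.91 on the log2 scale, and the gap junction gene Gja4 by 2.01. Zbed3 of the subcortical maternal complex fell by 2.09 on the log2 scale. Plat, the tissue plasminogen activator, showed the largest difference of the class, -2.64 ± 0.69 (SE, FDR adjusted P = 0.0114), and the least even group, with 4.99, 51.2, 11.4 and 9.28 FPKM in the ZH KO libraries against 113, 118, 66.3 and 70.4 FPKM in ZH Het. The class numbered 217 without ZH KO replicate 2, of which 115 were among the 119.

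Windows at the start of Sycp3, which rose, and Bub1b, which fell, are shown because both genes act on meiotic chromosomes and moved in opposite directions in the same oocytes. Capitals in Sycp3 mark 2 E-boxes, whose letters are CACGTG, and a CCAAT box. They also mark, on the opposite strand, an E2F site, which was searched as the letters TCCCGC. In Bub1b they mark a CCAAT box and an E2F site, both on the opposite strand.
Sycp3 (chr10:88459337-88459636, plus strand): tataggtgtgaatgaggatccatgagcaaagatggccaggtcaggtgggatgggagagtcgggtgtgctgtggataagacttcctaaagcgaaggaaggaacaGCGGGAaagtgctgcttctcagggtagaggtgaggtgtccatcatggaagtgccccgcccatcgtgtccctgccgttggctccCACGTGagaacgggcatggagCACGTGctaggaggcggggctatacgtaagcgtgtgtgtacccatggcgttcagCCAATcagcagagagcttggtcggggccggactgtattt
Bub1b (chr2:118597961-118598260, plus strand): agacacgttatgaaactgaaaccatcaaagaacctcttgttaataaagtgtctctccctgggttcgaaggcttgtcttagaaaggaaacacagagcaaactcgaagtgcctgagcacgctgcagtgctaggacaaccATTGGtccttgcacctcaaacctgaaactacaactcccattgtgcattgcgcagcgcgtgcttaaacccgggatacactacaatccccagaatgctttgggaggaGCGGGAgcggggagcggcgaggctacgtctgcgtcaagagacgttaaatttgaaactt
An E-box was present in 13 of the 55 windows of genes that rose in the ZH line only (23.6%) and in 5 of the 76 windows of those that fell (6.58%), against 10.7% of all windows. The CCAAT box was in 45.5% of the windows of genes that rose and 51.3% of those that fell, against 43.4% of all. TATAAA was in 18.2% and 6.58%, against 8.08% of all, and the E2F letters in 41.8% and 26.3%, against 34.6%. The E2F letters were added to the search after the values were seen.

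Movement in the CabZ line only was seen for 7 genes, 3 up and 4 down. These counts turned on single libraries, with 7 up without CabZ KO replicate 1 and 1 up without CabZ KO replicate 2, and with 7 down without CabZ Het replicate 3 or CabZ KO replicate 1 and 2 down without ZH Het replicate 2 or ZH KO replicate 1. Crabp2 (chr3:87948666-87953377), which carries retinoic acid within the cell, stood at 67.8, 79.7, 84.0 and 80.3 FPKM in CabZ Het and 18.3, 6.53, 8.30 and 4.75 FPKM in CabZ KO libraries. In the ZH line it stood at 41.3, 37.8, 38.9 and 42.1 FPKM in Het and 56.5, 28.1, 26.9 and 20.4 FPKM in KO libraries, where replicate 1 lay above and replicates 2 to 4 below every Het library. Replicate 1 of CabZ KO was the highest of its group for Crabp2, as it was for Akr1b8 and Zscan4-ps1. The CabZ change was -3.07, the ZH interval -0.96 to 0.21, and the difference 2.69 ± 0.44 (SE, FDR adjusted P = 0.000603). Akr1b8, an aldo-keto reductase, fell from 4.04 ± 0.246 to 0.590 ± 0.599 FPKM in the CabZ line (SD, n = 4). Aprt, the enzyme that salvages adenine, fell from 3.51 ± 0.346 to 1.14 ± 0.431 FPKM, on 12 to 36 reads in the KO libraries, and Prr32 from 9.24 ± 2.051 to 3.62 ± 0.927 FPKM (SD, n = 4). The 3 that rose were the processed pseudogenes Gm12633, from 25.9 ± 6.90 to 100.1 ± 24.9 FPKM, and Gm13361, from 1.33 ± 0.195 to 4.01 ± 1.15 FPKM, and the non-coding RNA Gm16211 (SD, n = 4). Gtsf1l, named after its values were seen, rose in both lines and was the single gene of the class with the same direction whose rise was the larger in CabZ KO, at 2.44 against 1.00.

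The window of Akr1b8 is printed as an example from the genes that moved in the CabZ line only. Capitals mark TATAAA, the ETS letters CCGGAAG and 2 copies of the E2F letters, each on the opposite strand.
Akr1b8 (chr6:34353896-34354195, plus strand): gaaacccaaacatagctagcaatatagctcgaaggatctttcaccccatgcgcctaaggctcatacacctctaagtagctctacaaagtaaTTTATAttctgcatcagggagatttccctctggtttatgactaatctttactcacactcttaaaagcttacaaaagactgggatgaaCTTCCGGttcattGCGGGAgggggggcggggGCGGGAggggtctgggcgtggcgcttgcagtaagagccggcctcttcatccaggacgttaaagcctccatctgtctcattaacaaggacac
These motifs were searched on both strands of each window, and they describe letters in a window of fixed length.

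Genes that moved the same way in both lines with unequal size mostly rose more in ZH KO. Of the 81, 68 rose and 13 fell in both lines. Tceal9, a transcription elongation factor-like gene of the X chromosome, rose by 4.38 in ZH KO and 1.19 in CabZ KO. The ferritin light chain gene Ftl1 rose by 3.93 and 1.76, from 39.9 ± 8.14 to 616 ± 66.2 FPKM in the ZH line and from 56.4 ± 6.24 to 194 ± 17.1 FPKM in the CabZ line (SD, n = 4). Hsd17b10, a mitochondrial dehydrogenase, rose by 3.81 and 1.30, and Ddit3, the stress-induced factor CHOP, by 3.09 and 1.16. The histone variant gene H2afz rose by 3.27 and 1.15, the 2-cell-stage gene Tcstv3 by 1.90 and 0.66. H3.3 itself is encoded by H3f3a and H3f3b. H3f3b rose by 1.04 and 0.70 with a difference of 0.34 ± 0.15 (SE, FDR adjusted P = 0.0943), and H3f3a changed by 0.16 and -0.06 with a difference of 0.22 ± 0.25 (SE, FDR adjusted P = 0.511), so neither passed for the difference.

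Gene lists were then read in both lines. Over all genes tested the median change was -0.08 in ZH KO and -0.03 in CabZ KO. A difference was called for 8.72%, with the higher ZH effect for 5.12% and the lower for 3.6%. Nuclear genes of oxidative phosphorylation had a median change of 0.47 in ZH KO and -0.11 in CabZ KO over 72 tested. Of these, 11 were called (15.3%), all with the higher ZH effect. Cytosolic ribosomal proteins had medians of 0.53 and 0.02 over 76 tested. Of these, 7 were called (9.21%), near the share called in either direction among all genes, and all had the higher ZH effect. The median difference stayed above 0 under every scaling, at 0.31 to 0.61. For oxidative phosphorylation that range was 0.40 to 0.72. On the other side, zona pellucida and oocyte growth factor genes had medians of -0.75 and -0.17 over 22 tested. Of these, 6 were called (27.3%), all with the lower ZH effect. Subcortical maternal complex and other maternal effect genes had medians of -0.71 and -0.11 over 29 tested, with 5 called (17.2%). Maternal mRNA decay and storage genes had medians of -0.44 and -0.06 over 23 tested, with 4 called (17.4%). Meiotic arrest and resumption genes had medians of -0.58 and -0.06 over 28 tested, with 4 called (14.3%). DNA repair genes had medians of -0.35 and -0.01 over 43 tested, with 4 called (9.3%), near the share called in either direction among all genes. In these 5 lists every call was of a lower ZH effect, and the median difference stayed below 0 under every scaling, the nearest to 0 being -0.26 for DNA repair.

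In 4 lists the median difference stayed near that of all genes. The proteasome had a median difference of -0.12 over 38 tested, the spliceosome of -0.02 over 55, the translation factors of -0.06 over 40 and the spindle, kinetochore and cohesin list of -0.08 over 46, and for each of the 4 the sign turned under other scalings. The lists that follow lay further from it. The 12 aminoacyl-tRNA synthetases tested had a median difference of -0.45, with Iars alone called. That median stayed below 0 under every scaling, at -0.60 to -0.36. Mitochondrial ribosomal proteins had a median difference of 0.22 over 71 tested and 2 calls, Mrps2 and Mrpl2, both against that direction. All 4 Zscan4 genes tested had a higher ZH effect, with a median difference of 2.69. Zscan4d rose in both lines and Zscan4-ps1 moved in opposite ways, while Zscan4c and Zscan4f rose in ZH KO and had CabZ changes of 1.44 and 0.95 that did not pass.

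The remaining lists had few genes tested or called. The 2-cell-stage genes had a median difference of -0.16 over 10 tested, with Gm5039 and Tcstv3 called, and the integrated stress response genes of -0.20 over 10, with Ddit3 and Dnajb9 called. All 4 of these calls were of a higher ZH effect, against the direction of the median. They made up 20% of the genes tested in each list, beside 8.72% of all genes. Ribosome assembly factors had a median difference of -0.16 over 50 tested, with Nhp2 and Npm1 called higher and Utp3, a nucleolar factor, called lower. Chromatin remodelling genes had a median of -0.40 over 14 tested, with the ATPase gene Ruvbl2 called, and histone methyltransferases and demethylases a median of -0.35 over 12. Hira complex and H3.3 chaperone genes had a median of -0.06 over 11 tested, whose sign turned under other scalings, with Chaf1a, the large subunit of the replication-coupled chaperone, called at -1.05 ± 0.24 (SE, FDR adjusted P = 0.00523). Hira, Cabin1, Ubn1 and Ubn2 averaged under 1 FPKM in the ZH line, so none of them was among the genes tested. Histone and linker histone genes had a median of -0.21 over 15 tested, with H2afz and H2afx called in opposite directions. Interferon-induced genes had a median of -0.34 over 10 tested, with Bst2 and the transcription factor gene Irf1 called in opposite directions. Apoptosis and p53 target genes had a median of 0.02 over 11 and imprinted genes of -0.03 over 10, both with a sign that turned under other scalings. Birc3, an inhibitor of apoptosis, and Btg2, a p53 target, were called in opposite directions among the former. Phlda2 and Zrsr1 were called among the latter, both with the higher ZH effect. Both Tceal and Bex family genes tested had a difference above 0, and Tceal9 was called. Mitochondrially encoded genes were listed for the CabZ line alone and were not tested. The lists and their members were chosen with earlier results of these data known.

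**Figure D4:**
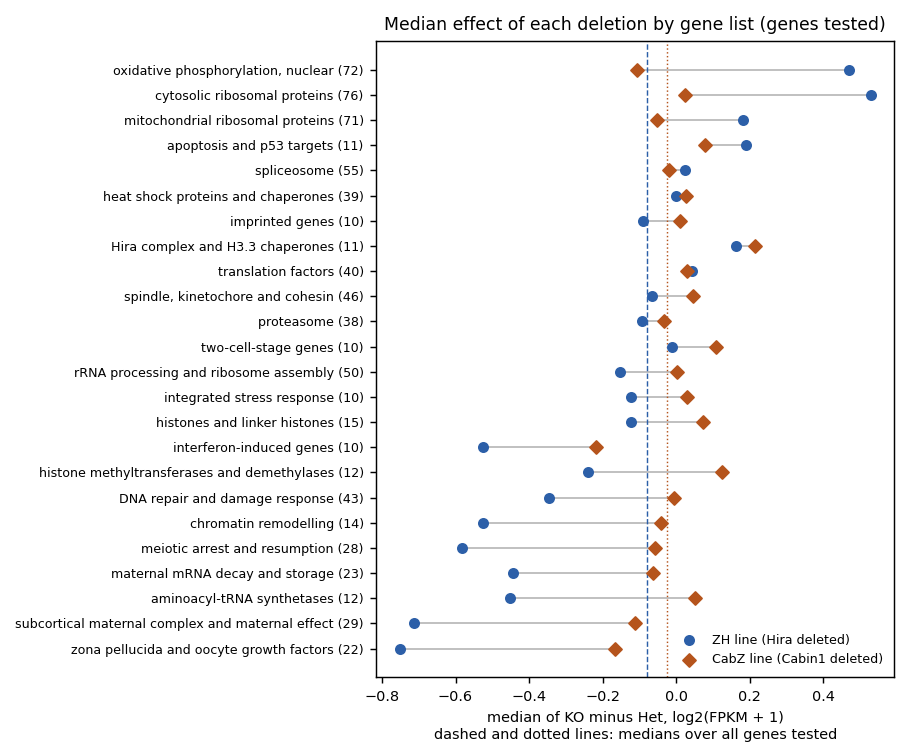
Median change from Het to KO over each gene list with at least 10 genes tested, in log2(FPKM + 1), for the ZH line (circles) and the CabZ line (diamonds), with the number of genes tested in brackets. Vertical lines mark the medians over all genes, -0.08 for ZH (dashed) and -0.03 for CabZ (dotted). Lists of oocyte-specific genes lie lowest for ZH and the respiratory chain and ribosomal lists lie highest, while the CabZ diamonds stay between -0.22 and 0.21.

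The classes differed in gene size, which was not a criterion of any class but enters every FPKM value. The deposited FPKM values divide by the whole span of a gene, introns included, so levels of genes with long introns read low. The median span was 8125.5 bp over all genes tested, 1941 bp for genes that rose in the ZH line only and 10435 bp for those that fell. Of the genes that rose in the ZH line only, 38.4% spanned under 1000 bp, against 14.7% of all. Among all genes tested the median difference between the lines fell with span, from 0.31 under 1000 bp to 0.10, -0.14 and -0.26 in the ranges 1000 to 5000 bp, 5000 to 20000 bp and from 20000 bp. The median CabZ change was -0.01 under 1000 bp and -0.03 from 20000 bp. The part of span in the lists above was not tested. Promoter windows had a median of 11 CpG in the opposite-way genes, 18 in genes that rose and 18.5 in genes that fell in the ZH line only, and 21 in all genes.

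The classes were then read in 2-cell embryos of the CabZ line, libraries that played no part in forming them. In these embryos 16.9% of 7797 genes were called higher and 20.4% lower in CabZ KO. Of the 117 tested genes that had risen in ZH KO oocytes only, 24 (20.5%) were higher and 42 (35.9%) lower, with a median change of -0.38 against -0.11 over all genes. Of the 90 tested that had fallen, 19 (21.1%) were higher and 7 (7.78%) lower, with a median of 0.35. Of the leading genes that had risen, Sycp3 changed by -1.07 (SE 0.38, FDR adjusted P = 0.035) and Gpx1 by -1.13 (SE 0.25, FDR adjusted P = 0.0047) in CabZ KO 2-cell embryos, and Hmgn2, Rps23-ps1 and Rpl9-ps6 fell too, by 1.43, 1.90 and 1.77 on the log2 scale. Id2, Teddm1b and Gm43263 rose, by 1.05 (SE 0.37, FDR adjusted P = 0.036), 0.93 (SE 0.30, FDR adjusted P = 0.027) and 1.67 (SE 0.45, FDR adjusted P = 0.011). Xlr5c at 0.39 and Gm7334 at -0.97 did not pass. Of those that had fallen in oocytes, Btg4 rose by 1.27 (SE 0.30, FDR adjusted P = 0.0064), Plat by 1.45, Khdc1b by 0.76 and Gm38025 by 0.80, and Haspin fell by 1.54 on the log2 scale (SE 0.22, FDR adjusted P = 0.00055). Plat was low in these embryos, at 0.455 FPKM in Het and 3.04 FPKM in KO. AU022751 at -0.67, Creld2 at -0.41, Trim75 at -0.26 and Gm44087 at 0.13, leading members of the same class, did not pass. Among opposite-way genes 10 of 26 were higher (38.5%) and 7 lower (26.9%). Hspb1 fell in the 2-cell embryos as it had in CabZ KO oocytes, from 88.9 ± 22.9 to 33.1 ± 20.3 FPKM, and H2afx rose again, from 15.0 ± 8.93 to 57.7 ± 15.98 FPKM (SD, n = 4). Zscan4-ps1, lower in CabZ KO oocytes, was higher in CabZ KO embryos, at 71.0 ± 32.8 against 25.6 ± 13.4 FPKM. Gm12633 and Aprt kept their CabZ direction, at 3.75 and -2.10, and Crabp2 changed by 0.20 (SE 0.40, FDR adjusted P = 0.684). The share of reads on mitochondrial genes was 8.99% to 12.9% in the Het and 2.48% to 5.09% in the KO embryos, and its part in these changes was not tested.

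**Figure D5:**
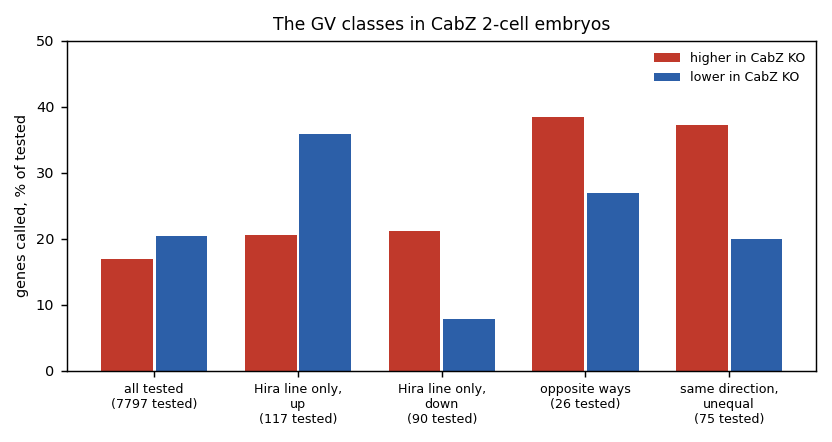
Share of genes called higher (red) or lower (blue) in CabZ KO against CabZ Het 2-cell embryos, in percent of the genes tested, for all genes and for 4 classes formed in GV oocytes. Genes that rose in ZH KO oocytes only have the tallest blue bar, at 35.9%, and genes that fell the shortest, at 7.78%.

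The last RNA libraries read were 2-cell embryos labelled as overexpressing Zscan4, with GFP controls. Per the study's methods, Zscan4d RNA was injected into wild-type GV oocytes that were later activated without sperm. Zscan4d was not higher in the libraries labelled Zscan4 overexpression, at 79.4 ± 7.94 FPKM against 117 ± 34.4 FPKM in GFP libraries (SD, n = 3 against 4), a change of -0.50 (SE 0.26, FDR adjusted P = 0.307 by limma). Zscan4c changed by -1.86, Zscan4f by -1.63 and Zscan4-ps1 by -2.52, with FDR adjusted P of 0.221, 0.149 and 0.0955. The study reported overexpression after injection by qRT-PCR for the mRNA and by immunofluorescence and western blot for the protein. Each was set against an uninjected group, which for qRT-PCR was of oocytes. The libraries here are of mRNA at the later 2-cell stage and against GFP, so the measures are not alike. The mRNA level in these 2-cell libraries does not show overexpression, and none of the 4 changes passed. No direction below can therefore be read as an effect of more Zscan4 mRNA at this stage. In these libraries 0.0233% of 4292 genes were called higher and 1.42% lower than in GFP libraries. The genes that rose in ZH KO oocytes only had a median change of -0.32 in the libraries labelled Zscan4 overexpression, with 78 of 97 lower, and those that fell a median of 0.41, with 65 of 82 higher, beside a median of 0.03 over all genes. These are counts and medians without a test of their own, and 1 of the 97 and 1 of the 21 opposite-way genes tested passed as single genes.

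Accessibility at the gene starts was available for the CabZ line, from 3 Het and 3 KO libraries of GV oocytes. The libraries had 43399 to 111327 peaks in Het and 19160 to 46070 in KO, so shares of genes with a peak summit within 500 bp of the start are given beside those of all genes. Over all 5332 genes the share was 10.9% to 37.4% in Het and 5.61% to 16% in KO libraries. Genes that fell in ZH KO oocytes only had a share of 14.3% to 42.9% in Het and 13.4% to 21.8% in KO. Genes that rose in the ZH line only had 5.60% to 27.2% and 3.20% to 9.60%, and opposite-way genes had 10.3% to 27.6% in Het and at most 3.45% in KO, which is 1 of 29 genes. Of the genes with printed windows, Bub1b had a summit in 2 libraries of each genotype and Hspb1 in 1 Het library. With 3 libraries against 3 a two-sided permutation test cannot go below 0.10, and the number of peaks differed between the genotypes, so no test was made.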

How the data were processed

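RNA of GV oocytes was measured in 16 libraries. Per the study's methods, reads were aligned to GRCm38/mm10 with STAR. The ZH values deposited by the authors are FPKM plus an offset of 0.01, which was subtracted here. The CabZ values deposited by the authors are a score with the same offset that was proportional to reads divided by the square of the gene span. They were multiplied by the span and scaled to the library's total to give FPKM. Because both tables divide by the gene span with introns, levels were not compared between genes. Low values came out as whole reads, within 0.05 of a read, for 84.0% to 86.7% of those tested, which gave the read totals, and read counts were not used for the tests. The ATAC peak files deposited by the authors give −log10 q per peak, called per library with MACS2, and summits were used. The 2-cell tables were treated alike, with an offset of 0.001 in the Zscan4 table.

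Values were tested as log2(FPKM + 1), which understates changes of low genes, with limma 3.58.1 in R 4.3.3 and Benjamini-Hochberg adjustment. Genes averaging 1 FPKM or more in both lines entered 1 model over 16 libraries with the contrast (ZH KO − ZH Het) − (CabZ KO − CabZ Het). Each line was also tested alone. Genes were named by the size of the difference, up to 10 per class of the ZH line, 6 of the CabZ line, 8 of opposite ways and 6 of the same direction. These had at least 10 FPKM in 1 group and, in classes of 1 line, no overlap in that line. The level minimum was dropped where a class held fewer. Called members of the gene lists were added, up to 4 a list, and the other opposite-way genes were chosen after their values were seen. The heat shock element, E2F and Nobox motifs were also added then. The members and lists were chosen with earlier results of these data known. The model was tested on simulated data. Scaling, pseudocount, filter, variance, block and leave-one-out alternatives were tried. No column of sample values was left unmapped. A few genes are not reported here.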

Additional observations from a re-analysis of the deposited data

Results flagged for a closer look

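The 2 effects differed by a test of the difference itself for 125 genes up and 119 down in the ZH line only, 3 up and 4 down in the CabZ line only, 29 in opposite ways and 81 in the same direction. Single libraries stood apart from the 3 others of their group for 16 of the 448 group values tested among the named genes. The groups share libraries and most named genes were picked by their values, so this count cannot be set against a rate given by chance. All values are FPKM.

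Among ZH KO libraries, replicate 2 stood apart for Plat at 51.2 (others 4.99 to 11.4), Bub1b at 5.11 (others 2.37 to 2.51) and Rpl9-ps6 at 14.2 (others 19.5 to 20.4). It was the nearest to the Het mean for 51.2% of genes up and 57.1% of genes down in the ZH line only. Among all genes tested that share was 38.1%. Replicate 3 stood apart for Chaf1a at 0.536 and Nlrp4a at 6.22, replicate 1 for Mos at 141 and replicate 4 for Rnf138rt1 at 59.7. In ZH Het the values were 19.6 for Zscan4-ps1 in replicate 2 and 2.20 for Il23a in replicate 1. Among CabZ Het libraries, replicate 2 stood apart for Creld2 at 15.97 and Gm5039 at 1.94. In CabZ KO, replicate 1 stood apart for Akr1b8 at 1.48 (others 0.153 to 0.372), replicate 3 for Atp5g3 at 9.74, Nlrp4a at 10.9 and Sf3b6 at 7.51, and replicate 4 for Dnajb9 at 2.48.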

How the results depend on the processing

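A pseudocount of 0.1 gave 789 genes with a difference, 410 of them with the lower ZH effect, and 278 down in the ZH line only, 6 up and 7 down in the CabZ line only. A pseudocount of 5 gave 166 genes, 112 with the higher and 54 with the lower effect, in classes of 61 up and 37 down in the ZH line only, 1 up and 1 down in the CabZ line only, 16 in opposite ways and 32 in the same direction. A mean of at least 5 FPKM gave 302 genes, 165 with the higher effect, with 77 up in the ZH line only, 1 up and 2 down in the CabZ line only, 16 in opposite ways and 53 in the same direction. A minimum of 0.1 FPKM gave 198 up in the ZH line only, and no filter 213. Without a fold threshold 1480 genes were called, 728 higher and 752 lower, with 483 up and 604 down in the ZH line only, 31 up and 40 down in the CabZ line only and 173 in the same direction. CabZ values as they stand in the table gave 291 genes, 106 with the lower effect, with 82 up and 72 down in the ZH line only, 1 up and 2 down in the CabZ line only and 11 in opposite ways.

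Scaling the ZH libraries to their own table gave 430 genes with the higher effect and 201 up in the ZH line only. Scaling to genes tested in both gave 106 with the lower effect and 62 down in the ZH line only. Equal medians gave 339 with the lower effect, 80 up and 224 down in the ZH line only and 2 down in the CabZ line only. The cause was not tested for any of these.

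Leaving out 1 library gave 371 to 641 genes, 228 to 319 higher and 134 to 322 lower. The classes ran from 99 to 152 up and 84 to 217 down in the ZH line only, 1 to 7 up and 2 to 7 down in the CabZ line only, 19 to 32 in opposite ways and 64 to 91 in the same direction. Without ZH KO replicate 2 there were 322 with the lower effect, 217 down in the ZH line only and 5 up in the CabZ line only, and without CabZ Het replicate 1 there were 19 in opposite ways. The genes up in the CabZ line only numbered 7 without CabZ KO replicate 1 and 1 without CabZ KO replicate 2. Those down numbered 2 without ZH Het replicate 2 or ZH KO replicate 1 and 7 without CabZ Het replicate 3 or CabZ KO replicate 1.

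Of the 114 named genes, 46 lost their call with a pseudocount of 5 and 13 when scaled to genes tested in both, and no difference reversed under any alternative run. Same-numbered Het and KO libraries correlated by -0.42 to 0.42 for ZH and by -0.19 to 0.22 for CabZ. These values neither show nor exclude a pairing by number, and the methods name none. With the replicate block 450 genes were called, 444 of them among the 465. Restricting to genes with the same coordinates in both tables (446 called) or at least 50 reads (452 called) was chosen after seeing the data.

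In 2-cell embryos a mean of at least 5 FPKM left 10 calls among opposite-way genes, against 17. In the libraries labelled Zscan4 overexpression, genes up in the ZH line only had 0 calls by limma with a pseudocount of 0.1 and with the replicate block and 2 with a minimum mean of 5 FPKM, and opposite-way genes had 0 with a pseudocount of 0.1 and with the replicate block. Leaving out 1 library gave 0 to 6 calls for genes up, 0 to 1 for genes down and 0 to 1 for opposite-way genes, with 6 without replicate C labelled Zscan4 overexpression. Leaving out 1 CabZ 2-cell library gave 53 to 66, 25 to 34 and 16 to 17 calls. Changes of genes with few reads were limited by depth.
With peaks of −log10 q of at least 5, the share of all genes with a summit at the start was 0.75% to 16.8% in Het and 0.356% to 2.68% in KO libraries, so these shares follow the peak threshold.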
